A study of Mus musculus with 14 samples.

Results

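Klf2, Klf4, Klf5, Esrrb, Tbx3, Zfp42 and Myc are 7 mouse genes for transcription factors of, or linked to, the naive pluripotent state of embryonic stem cells. They were chosen by name, with earlier results of these data known. Every probe that the platform annotation assigns to 1 of these symbols was taken: 12 of the 25697 probes, for 7 of 16593 annotated genes. Klf4 and Tbx3 had 3 probes each, Myc had 2, and the other 4 genes had 1 each. Of the 12 probes, 11 were detected on at least 2 arrays (detection p under 0.01) and were tested. The probe left out was Myc ILMN_1231123, which was undetected on all 14 arrays (log2 intensity 4.38 to 4.64, detection p 0.554 to 0.997). The genes lie on chromosomes 8 (Klf2 and Zfp42), 4 (Klf4), 14 (Klf5), 12 (Esrrb), 5 (Tbx3) and 15 (Myc).

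RNA of 14 samples was measured on Illumina Mouse-8 v2 bead arrays, 1 array per sample. Germline stem cells (GSC), the self-renewing spermatogenic cells of the testis kept in culture, are labelled unipotent. The 3 GSC OG2 lines were of strain C57BL6 and carried an Oct4-GFP transgene, in which the Pou5f1 (Oct4) regulatory region drives a fluorescent protein. The 3 GSC OG2-ROSA lines came from C57BL6 x 129sv and carried Oct4-GFP x Lacz. Germline-derived pluripotent stem (gPS) cells, which the series text calls clonal, comprised 3 lines from OG2 and 3 from OG2-ROSA, with the strain and transgenes of their source. Embryonic stem cells (ESC) of strain C57BL6, with no transgene in their labels, gave 2 arrays. Age, sex and culture conditions are not given in the sources used here. Strain, transgene and a replicate mark carried only by the OG2 and ESC titles cannot be told apart between OG2 and OG2-ROSA. The series text allows technical duplicates, so the ESC pair may be 1 culture, and p-values against ESC may then be too small. It also counts 13 samples, with 2 replicates of GSC OG2-ROSA line 2, where 14 samples and 1 array of that line are listed.

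Naive pluripotency is held by a network in which the core factors Pou5f1, Sox2 and Nanog are joined by auxiliary factors with overlapping functions. The cytokine LIF, acting through the kinase JAK and the factor STAT3, induces Klf4. Tbx3 and Klf2 are fed by other signalling branches, and Esrrb is a target of Nanog and of the inhibition of GSK3. Klf2, Klf4 and Klf5 are zinc finger factors that bind GC-rich and CACCC sequences and can replace one another in part. Zfp42 (Rex1), a zinc finger protein related to YY1, is used as a marker of the naive state. Myc drives growth and biosynthesis. Klf4 and Myc, with Pou5f1 and Sox2, are the factors first used to reprogram fibroblasts.

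Promoters of 4 of the 7 genes were present in the RefSeq promoter table of build GRCm38.p6, of which the 250 bases before the annotated start were used. Klf5, Tbx3 and Myc had no entry there. Of these promoters, 3 are printed in the direction of the gene, because each of them, unlike the Klf2 window, holds a match to a motif other than the GC box. Capitals mark a match on either strand to 1 of 5 motifs. The core of the octamer bound by POU factors was searched as ATGCAAA. The GC box of SP and KLF factors was searched as GGGCGGG, and the CACCC box of KLF factors as CCACCCT. The site of STAT factors was searched as TTCNNNGAA, and the E-box bound by MYC with MAX as CACGTG. The site of ESRR factors, searched as AAGGTCA, matches none of the 3 windows. Nor does the site of YY1 and ZFP42, searched as GCCATNT. The windows are chr8:43307010-43307259 on the minus strand for Zfp42, chr4:55532476-55532725 on the minus strand for Klf4 and chr12:86360867-86361116 on the plus strand for the upstream of the 2 Esrrb starts.
Zfp42 promoter: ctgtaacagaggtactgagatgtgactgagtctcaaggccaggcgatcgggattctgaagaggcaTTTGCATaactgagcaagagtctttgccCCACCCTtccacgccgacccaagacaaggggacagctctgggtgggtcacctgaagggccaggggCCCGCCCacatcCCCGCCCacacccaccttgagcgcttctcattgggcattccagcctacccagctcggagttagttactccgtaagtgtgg
Klf4 promoter: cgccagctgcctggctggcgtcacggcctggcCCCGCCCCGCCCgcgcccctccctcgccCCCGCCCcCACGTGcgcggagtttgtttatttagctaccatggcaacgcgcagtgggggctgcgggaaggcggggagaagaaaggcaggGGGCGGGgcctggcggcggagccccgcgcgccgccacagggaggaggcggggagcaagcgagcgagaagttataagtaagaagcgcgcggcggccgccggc
Esrrb promoter: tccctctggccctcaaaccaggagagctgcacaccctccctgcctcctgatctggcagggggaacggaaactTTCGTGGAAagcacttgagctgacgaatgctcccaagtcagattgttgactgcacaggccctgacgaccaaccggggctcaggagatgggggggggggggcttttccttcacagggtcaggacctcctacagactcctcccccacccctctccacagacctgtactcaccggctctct

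The Zfp42 window holds the octamer core on the reverse strand at -185 to -179 relative to the start, a CACCC box at -157 to -151 and GC boxes at -92 to -86 and -80 to -74. The Klf4 window holds 4 GC boxes, of which the pair at -218 to -212 and -213 to -207 overlap, and an E-box at -182 to -177. The Esrrb window holds a STAT site at -178 to -170, and the window before the other Esrrb start, 250 bases from 86421394 on chromosome 12, holds none of the motifs searched. The Klf2 window (chr8:72318812-72319061, plus strand) holds 2 GC boxes. Of 32851 promoter windows of the same length, 4.12% hold the octamer core, 23.4% a GC box, 7.59% the CACCC box, 7.02% the STAT site and 6.02% the E-box. The share is 4.08% for the ESRR letters and 11.5% for the YY1 letters. These matches are descriptions of letters, and binding was not measured.

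Across the series, mean raw signal was 513.4 to 639.5 on 12 arrays and lower on gPS OG2-ROSA line 1 (379.1) and line 2 (308). An array detected 9638 to 11610 probes. The cell labels were checked with marker lists, each summed up as the mean log2 intensity of its genes. The germ cell list stood at 9.25 to 9.73 on the GSC arrays and at 5.73 to 6.26 on the gPS arrays. The pluripotent list stood at 6.52 to 7.32 on the GSC, 11.36 to 11.85 on the gPS and 11.34 to 11.37 on the ESC arrays. The arrays measure bulk RNA, so more cells of a type and more RNA per cell cannot be told apart.

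The first comparison asked how the 7 factors differ between germline stem cells and the pluripotent lines derived from them. All 7 rose. Klf5, Esrrb and Klf2 rose most, 44.7-fold, 34.6-fold and 20-fold on average over both backgrounds. Tbx3 rose 11.6-fold, Zfp42 5.63-fold and Klf4 2.54-fold at the probe with the highest mean of each gene. Myc rose at least 1.95-fold under the main processing. All 11 tested probes passed the limma test (adjusted p under 0.05) in the direction of higher gPS values, against 30.4% of all 13034 tested probes. Myc ILMN_2623526 and Tbx3 ILMN_3061990 were detected on no GSC array. They entered the test through pluripotent arrays only, so their direction was largely set by the filter. On all 11, every one of the 6 gPS arrays lay above every one of the 6 GSC arrays, as 18% of all tested probes did. The median log2 difference of the 11 probes was 2.49 (range 1.35 to 5.48), beside -0.04 over all tested probes. With arrays scaled by the median of all probes in place of quantiles, the all-probe median was -0.28 and the share of calls that were higher was 34.7%, compared with 47.6%. With the median of the probes detected on all arrays, the values were 0 and 49.9%. All 11 probes were called higher under both scalings.

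**Figure D1:**
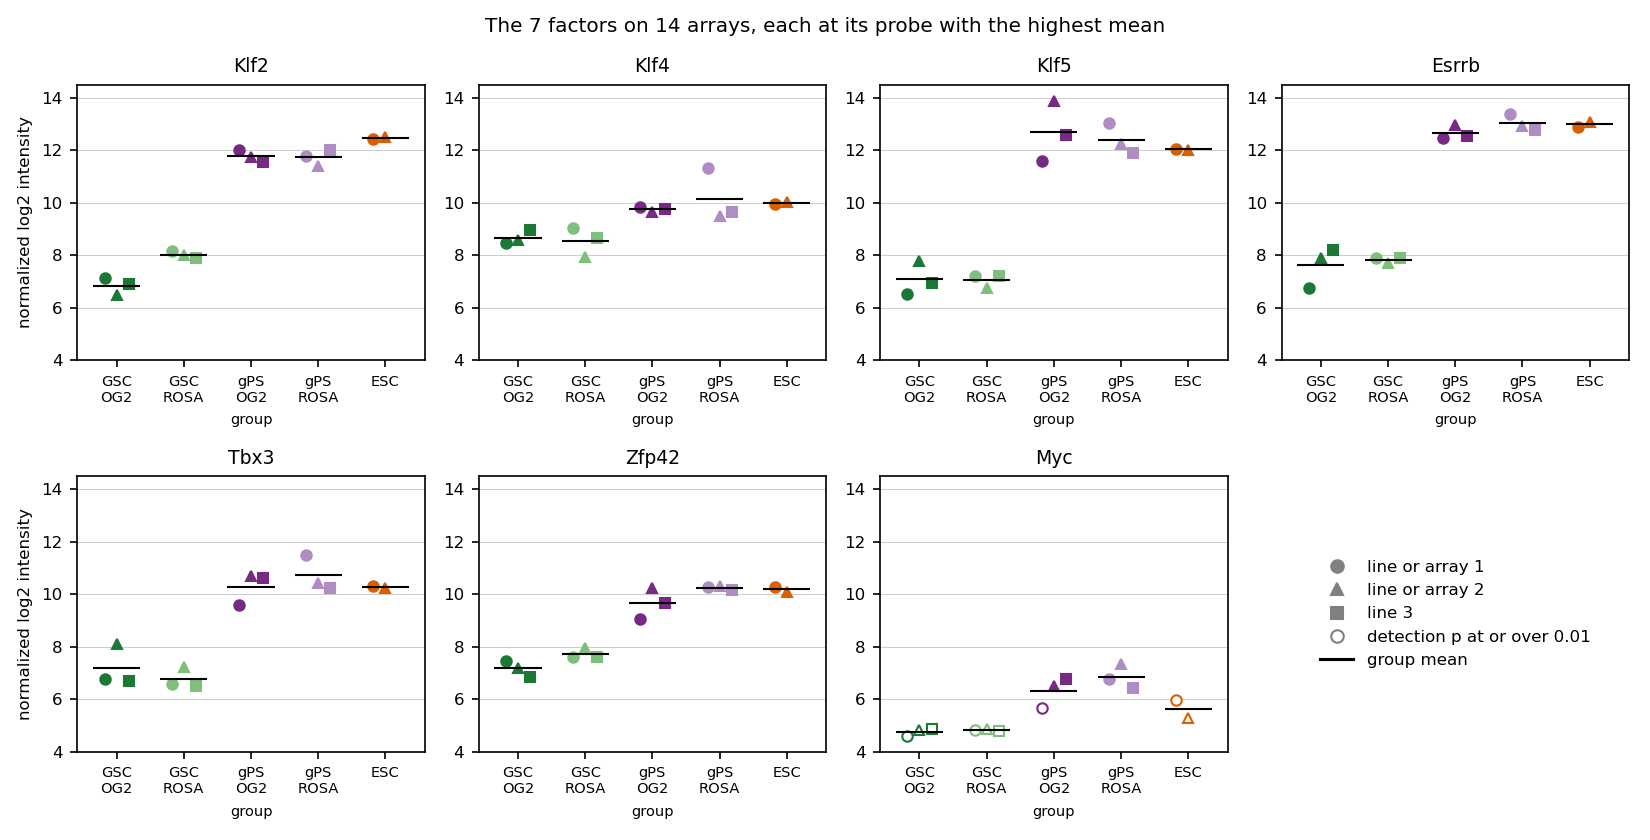
Normalized log2 intensity (vertical axis) of the 7 factors on the 14 arrays, by group (horizontal axis; ROSA stands for OG2-ROSA), each gene at its probe with the highest mean; points are arrays, open points are arrays where the probe was undetected, and lines are group means. For each gene the 6 gPS points lie above the 6 GSC points, and Klf2 is the gene whose GSC OG2-ROSA points (7.91 to 8.14) all stand well above GSC OG2 (6.49 to 7.12).

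Klf2 is the member of the KLF trio that lies downstream of Pou5f1 in embryonic stem cells. Its log2 intensity on lines 1, 2 and 3 was 7.12, 6.49 and 6.91 in GSC OG2, 8.14, 8.0 and 7.91 in GSC OG2-ROSA, 12.02, 11.74 and 11.55 in gPS OG2 and 11.78, 11.39 and 12.01 in gPS OG2-ROSA. The ESC arrays gave 12.41 and 12.51. Both ESC arrays were thus above all gPS arrays, and the GSC arrays of OG2 and OG2-ROSA did not overlap. The gPS minus GSC difference was 4.32 on the log2 scale (SE 0.15, 95% interval 3.99 to 4.65, limma adjusted p = 1.11e-10). It was 4.93 in OG2 and 3.71 in OG2-ROSA.

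Klf5 acts in the naive network and in the trophectoderm of the blastocyst. Its log2 intensity on lines 1, 2 and 3 was 6.51, 7.76 and 6.95 in GSC OG2, 7.19, 6.75 and 7.22 in GSC OG2-ROSA, 11.58, 13.87 and 12.59 in gPS OG2 and 13.05, 12.25 and 11.91 in gPS OG2-ROSA. The ESC arrays gave 12.04 and 12.01, inside the range of the gPS arrays. With 2.29 between its lowest and highest pluripotent array, Klf5 spread most of the 7 genes over the 8 gPS and ESC arrays when each gene is taken at its probe with the highest mean. A dimmer Klf4 probe, ILMN_1221264, spread over 2.42. The gPS OG2 mean was 12.68 ± 1.15 (SD, n = 3) and the gPS OG2-ROSA mean 12.41 ± 0.587 (SD, n = 3). The gPS minus GSC difference was 5.48 (SE 0.34, 95% interval 4.74 to 6.22, limma adjusted p = 1.91e-08), with 5.61 in OG2 and 5.35 in OG2-ROSA. Of 8 tested trophoblast markers, 4 were called higher in gPS, 0 lower and 4 did not pass, where 30.4% of all tested probes were called higher, the list mean being 5.86 to 6.15 on the GSC and 6.27 to 8.06 on the gPS arrays. The highest list mean was on gPS OG2 line 3, whereas Klf5 was highest on gPS OG2 line 2, whose list mean was 6.91. In OG2 alone 5 of the 8 were called higher (median 1.22 on the log2 scale; 23.2% of all tested probes), and in OG2-ROSA alone 2 of 8 (median 0.14; 23.9%). The part of these cells in the Klf5 values was not tested.

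Klf4, the LIF-induced KLF factor, had a smaller gPS minus GSC difference at each of its 3 probes than Klf2 and Klf5. At ILMN_2999439, the probe with the highest mean, log2 intensity on lines 1, 2 and 3 was 8.48, 8.57 and 8.95 in GSC OG2, 9.03, 7.93 and 8.66 in GSC OG2-ROSA, 9.85, 9.63 and 9.77 in gPS OG2 and 11.32, 9.49 and 9.63 in gPS OG2-ROSA. The ESC arrays gave 9.95 and 10.04. The GSC lines were thus already well above detection, and 1 gPS line, OG2-ROSA line 1, stood above all other arrays. The gPS minus GSC difference was 1.35 (SE 0.29, 95% interval 0.73 to 1.96, limma adjusted p = 0.00104).

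The other Klf4 probes gave larger differences, 1.71 at ILMN_1241903 (SE 0.29, limma adjusted p = 0.000167) and 1.94 at ILMN_1221264 (SE 0.29, limma adjusted p = 5.35e-05). At ILMN_1241903 the gPS OG2-ROSA lines read 9.96, 10.14 and 8.46, the gPS OG2 lines 8.27, 8.14 and 8.15 and the ESC arrays 8.28 and 8.33. At ILMN_1221264 the same groups read 8.82, 9.38 and 7.78, then 6.96, 7.30 and 7.09, then 7.31 and 7.22. On gPS OG2-ROSA line 2, which has the lowest mean signal of all arrays, the probes disagreed: that array was the highest of all for these latter 2 probes and the lowest of the 8 pluripotent arrays for ILMN_2999439. Its raw signal was 4.67 times the mean of the negative controls at ILMN_2999439 and 6.93 times at ILMN_1241903, compared with 18.8 and 7.64 times on line 1. Which of the probes reports the Klf4 level of that line was not tested.

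Among the GSC arrays, OG2-ROSA line 2 gave the lowest Klf4 value at all 3 probes (7.93, 6.21 and 5.03, the last undetected). The mean of the fibroblast marker list was lowest on the same array, 7.14 against 8.48 to 9.73 on the other GSC arrays, and the part of fibroblasts in the Klf4 values was not tested. This list was also lower in the gPS lines, 6.65 to 8.05, with 12 of its 18 tested genes lower and 1 higher than in GSC, where 33.5% of all tested probes were lower. In OG2 alone 13 of the 18 were called lower (median -1.86; 26.2% of all tested probes), and in OG2-ROSA alone 3 of 18 (median -0.87; 26.2%). None of the 18 was undetected on all gPS arrays, while Pdgfra, Lum, Twist2 and Col1a2 were each detected on 1 of the 6.

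**Figure D2:**
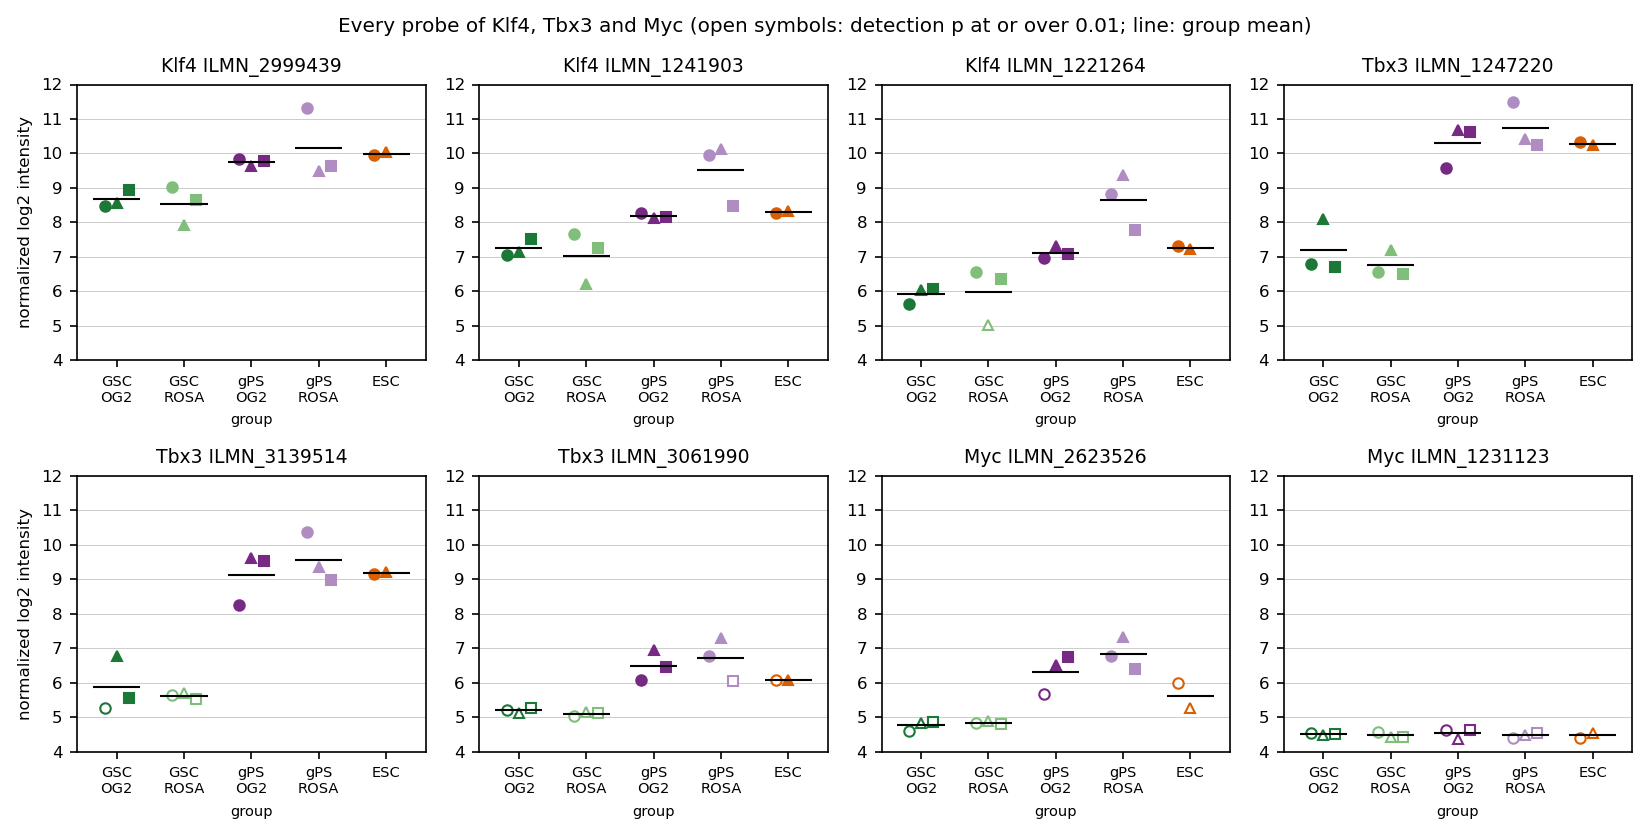
Normalized log2 intensity (vertical axis) at each of the 8 probes of Klf4, Tbx3 and Myc, by group (horizontal axis; ROSA stands for OG2-ROSA); points are arrays, with circles, triangles and squares for lines or arrays 1, 2 and 3, open points are undetected, and lines are group means. On gPS OG2-ROSA line 2 Klf4 reads 9.49 at ILMN_2999439, the lowest pluripotent value there, and 10.14 at ILMN_1241903, the highest.

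Esrrb, an orphan nuclear receptor that can stand in for Nanog, was the most even of the 7 genes among the pluripotent arrays, which spanned 0.93 on the log2 scale. Its log2 intensity on lines 1, 2 and 3 was 6.76, 7.90 and 8.20 in GSC OG2, 7.90, 7.71 and 7.88 in GSC OG2-ROSA, 12.46, 12.97 and 12.55 in gPS OG2 and 13.39, 12.92 and 12.76 in gPS OG2-ROSA. The ESC arrays gave 12.88 and 13.08, within the range of the gPS arrays. GSC OG2 line 1 was the lowest of all arrays. The gPS minus GSC difference was 5.11 (SE 0.22, 95% interval 4.64 to 5.59, limma adjusted p = 5.93e-10), with 5.04 in OG2 and 5.19 in OG2-ROSA.

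Tbx3 is a T-box factor that supports Nanog in the naive network. At ILMN_1247220 its log2 intensity on lines 1, 2 and 3 was 6.78, 8.10 and 6.70 in GSC OG2, 6.56, 7.21 and 6.49 in GSC OG2-ROSA, 9.57, 10.68 and 10.62 in gPS OG2 and 11.49, 10.43 and 10.25 in gPS OG2-ROSA. The ESC arrays gave 10.32 and 10.23. GSC OG2 line 2 was the highest GSC array and gPS OG2 line 1 the lowest gPS array, and they did not overlap. The gPS minus GSC difference was 3.53 (SE 0.30, 95% interval 2.88 to 4.18, limma adjusted p = 3.34e-07), with 3.10 in OG2 and 3.97 in OG2-ROSA.

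A further Tbx3 probe, ILMN_3139514, was detected on 2 of the 6 GSC arrays, and its gPS minus GSC difference was 3.61 (SE 0.31, limma adjusted p = 3.98e-07). The third, ILMN_3061990, was undetected on all 6 GSC arrays (5.03 to 5.27) and lay at 6.06 to 7.31 on the gPS arrays. There Tbx3 was at least 1.98-fold higher in gPS (fitted log2 difference 1.46, limma adjusted p = 3.01e-05). Such a bound starts from the mean over all arrays of the group with detected signal, undetected arrays included. It sets this mean against the lowest signal among detected probes, or the dim probe's own value where that is higher. Bounds hold for the main processing only, and with no background correction the fitted log2 difference at this probe was 0.58. At ILMN_1247220 and ILMN_3139514, each detected on some GSC arrays, Tbx3 thus rose, whereas the direction at ILMN_3061990 was largely set by the filter. The raw intensity at ILMN_3061990 was 146.8 and 136.7 on gPS OG2-ROSA lines 1 and 2, beside 145.2 to 160.1 on the GSC arrays. Sizes near background are only limits.

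Zfp42, the naive-state marker, had log2 intensities on lines 1, 2 and 3 of 7.46, 7.20 and 6.86 in GSC OG2, 7.61, 7.96 and 7.61 in GSC OG2-ROSA, 9.05, 10.22 and 9.68 in gPS OG2 and 10.26, 10.30 and 10.15 in gPS OG2-ROSA. The ESC arrays gave 10.29 and 10.10. The gPS OG2-ROSA lines and ESC thus read nearly the same, while gPS OG2 line 1 was the lowest pluripotent array and line 3 the next. The gPS minus GSC difference was 2.49 (SE 0.19, 95% interval 2.09 to 2.90, limma adjusted p = 1.03e-07), with 2.48 in OG2 and 2.51 in OG2-ROSA. Zfp42 was detected on all GSC arrays.

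Myc was near background throughout. At ILMN_2623526 it was undetected on all 6 GSC arrays (log2 intensity 4.61 to 4.88) and on both ESC arrays (5.98 and 5.27). In gPS OG2 it read 5.68, undetected, on line 1 and 6.52 and 6.75 on lines 2 and 3, and in gPS OG2-ROSA 6.78, 7.33 and 6.41. It was therefore detected on 5 of 14 arrays, all of them gPS. It was at least 1.95-fold higher in gPS than in GSC (fitted log2 difference 1.78, SE 0.21, limma adjusted p = 6.73e-06). The raw signal was 0.965 to 1.08 times the mean of the negative controls on the GSC arrays, 1.25 to 1.66 times on the gPS arrays and 1.33 and 1.15 times on the ESC arrays. The fitted size depended on the background correction, from 0.71 with none to 2.91 with the authors' processed values. The bound therefore holds for the main processing only.

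Taken background by background, 10 of the 11 probes were called higher in gPS OG2 than in GSC OG2, against 23.2% of all tested probes, and all 11 were called in OG2-ROSA, against 23.9%. Myc and Tbx3 ILMN_3061990 were among them, with the limit of the filter given above. In each background the gPS and GSC arrays did not overlap on any of the 11 probes, as held for 29.1% and 26.1% of all tested probes in that direction. Under scaling by the median of all probes the share of calls that were higher was 37.5% in OG2 and 29.5% in OG2-ROSA, compared with 47% and 47.6%. The probe not called was Klf4 ILMN_1241903 in OG2, at 0.94 (limma adjusted p = 0.0717). The other Klf4 probes were called there at 1.08 (adjusted p = 0.0397) and 1.21 (adjusted p = 0.0247) in limma, and lost their calls under 7 and 8 of 17 alternative settings, with limma adjusted p up to 0.107 and 0.0824. In OG2-ROSA Klf4 rose by 1.61, 2.49 and 2.67 at the 3 probes. At ILMN_2999439 this was 1.02 without gPS OG2-ROSA line 1, still called, and at ILMN_1241903 it was 1.43 without both dim lines, 1 and 2, still called. Bounds for Myc were at least 1.7-fold in OG2 and at least 2.23-fold in OG2-ROSA under the main processing. With no background correction its fitted log2 differences were 0.61 and 0.82.

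Whether the change differed between the backgrounds was tested as an interaction. None of the 11 probes was called by limma after adjustment, and 1 of 13034 probes was called (0.00767%). At an unadjusted p under 0.05 there were 3 of the 11 probes, against 5.01% of all tested probes. The Klf2 rise was 1.22 smaller in OG2-ROSA on the log2 scale (difference -1.22, 95% interval -1.89 to -0.56, unadjusted p = 0.00158, limma adjusted p = 0.67). The Klf4 rise was larger by 1.54 at ILMN_1241903 (unadjusted p = 0.019, limma adjusted p = 0.871) and by 1.46 at ILMN_1221264 (unadjusted p = 0.024, limma adjusted p = 0.886). These 3 differences failed the correction over all probes. At ILMN_2999439, not among the 3, Klf4 rose by 1.61 in OG2-ROSA and by 1.08 in OG2.

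The next comparison set the pluripotent lines against embryonic stem cells. None of the 11 probes was called by limma for gPS OG2 against ESC, where 0.836% of all tested probes were, and none for gPS OG2-ROSA against ESC, where 0.261% were. The differences ranged from -0.69 to 0.69 on the log2 scale in gPS OG2, with 95% intervals between -1.22 and 1.82. In gPS OG2-ROSA they ranged from -0.73 to 1.39, with intervals between -1.26 and 2.37, so the interval of some probes reaches past a log2 difference of 1.

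**Figure D3:**
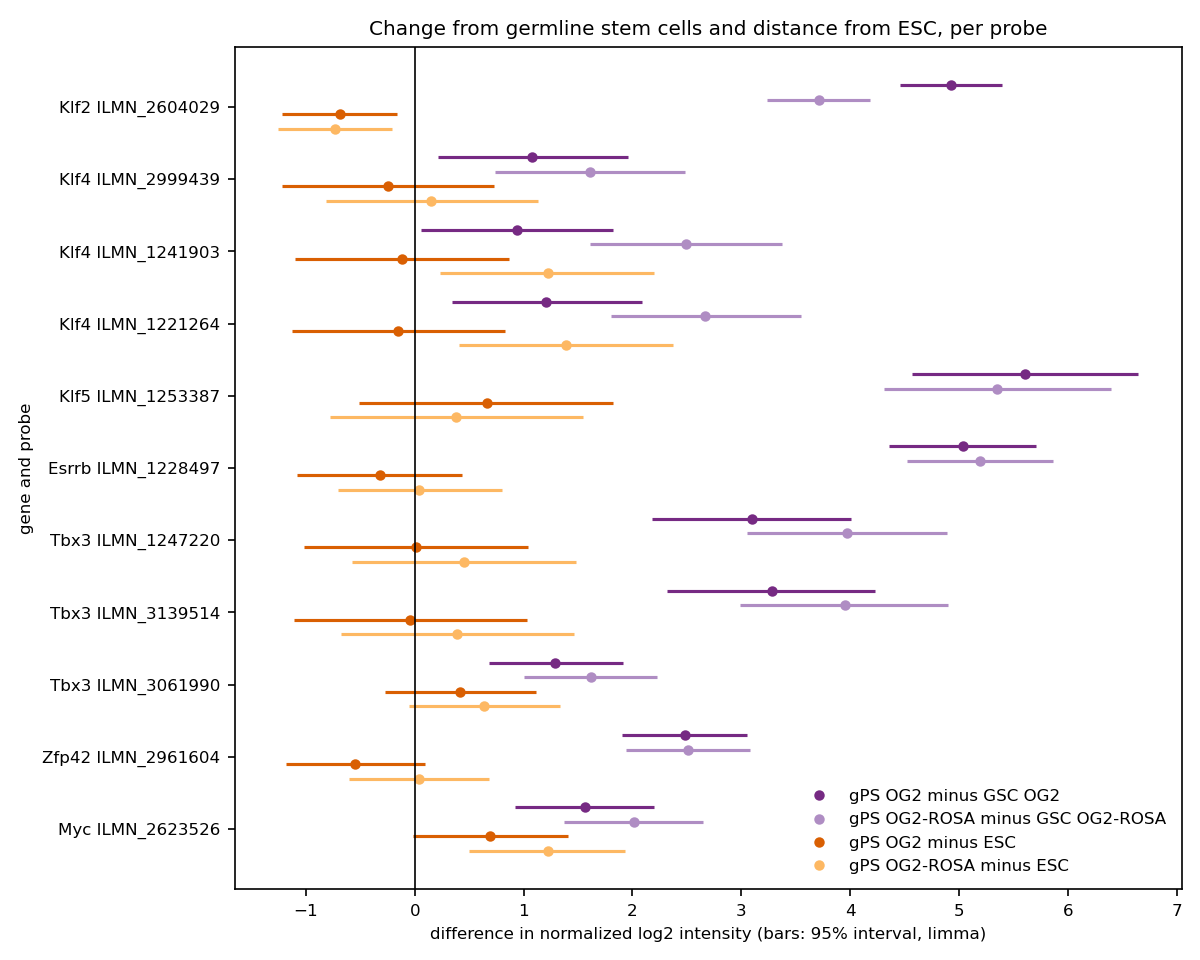
Difference in normalized log2 intensity (horizontal axis) at the 11 tested probes (vertical axis), for gPS minus GSC in each background and gPS minus ESC in each background; points are limma estimates and bars their 95% intervals. The Klf2 differences from ESC, -0.69 and -0.73, have intervals below 0, and those of Klf4 at ILMN_1241903 and ILMN_1221264 and of Myc in gPS OG2-ROSA have intervals above 0, all without passing the adjusted threshold; Myc was undetected in GSC and ESC, so its points are model estimates near background and not exact sizes.

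Klf2 was lower than in ESC on all 6 gPS arrays. Arrays lay apart in that direction for 18.1% of all tested probes in gPS OG2 and for 13.4% in gPS OG2-ROSA. The difference was -0.69 in gPS OG2 (95% interval -1.22 to -0.16, unadjusted p = 0.0141, limma adjusted p = 0.307) and -0.73 in gPS OG2-ROSA (95% interval -1.26 to -0.21, limma adjusted p = 0.379). These 2 comparisons share the ESC arrays. With array weights in the fit, the former was -0.82 and passed (limma adjusted p = 0.00464), under weights that raised the share of all tested probes called in gPS OG2 from 0.836% to 12.5%. In gPS OG2-ROSA, Klf4 read 1.22 and 1.39 above ESC at ILMN_1241903 and ILMN_1221264 (limma adjusted p = 0.44 and 0.373). At ILMN_2999439, its probe with the highest mean, it read 0.15 above (limma adjusted p = 0.94). At ILMN_1241903 the dim lines 1 and 2 read 9.96 and 10.14 and line 3 read 8.46, beside an ESC mean of 8.304. Myc, undetected in ESC, read at least 1.65-fold above it in gPS OG2-ROSA under the main processing, without passing (limma adjusted p = 0.249). With no background correction the fitted log2 difference of Myc was 0.52, so the bound does not hold across processings. At an unadjusted p under 0.05 there were 1 of 11 probes in gPS OG2, against 9.99% of all tested probes, and 4 of 11 in gPS OG2-ROSA, against 9.81%.

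Germline stem cells were then set against ESC. In GSC OG2, 10 of the 11 probes were called lower, against 21.8% of all tested probes, and in GSC OG2-ROSA 10 of 11, against 21.7%. Both counts include Tbx3 ILMN_3061990 (-0.87 and -0.98), detected on no GSC array and on 1 of 2 ESC arrays. That for GSC OG2 includes Myc (-0.86), detected on neither side. Both probes entered the test through pluripotent arrays only, so these calls carry the limit of the filter given above. Klf2 differed by -5.62 in GSC OG2 and -4.44 in GSC OG2-ROSA, Esrrb by -5.36 and -5.15, and Klf5 by -4.95 and -4.97 on the log2 scale. Tbx3 at ILMN_1247220 differed by -3.08 and -3.52, Zfp42 by -3.02 and -2.47, and Klf4 at ILMN_2999439 by -1.33 and -1.46. The probes not called were Klf4 ILMN_1241903 in GSC OG2 (-1.06, limma adjusted p = 0.0742) and Myc in GSC OG2-ROSA (-0.79, limma adjusted p = 0.066). Myc was undetected in ESC and GSC alike, so no fold is given. Without GSC OG2 line 1 the calls in GSC OG2 fell to 6, while the share of all tested probes called in either direction fell from 45.7% to 39.5%. Averaging the ESC pair or leaving out 1 of its arrays left 1 ESC sample. Calls then fell in each comparison, among all tested probes as well as among the 11. Under scaling by the median of all probes the higher share of all calls was 58.5% and 60.2%, compared with 52.4% and 52.8%.

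Within a cell type, the backgrounds were compared too. For gPS OG2-ROSA against gPS OG2, limma called 0 of the 11 probes and 0.222% of all tested probes. At an unadjusted p under 0.05 there were 3 of 11, against 10.7%: Klf4 at ILMN_1221264 (1.54, limma adjusted p = 0.18) and ILMN_1241903 (1.34, limma adjusted p = 0.262), and Zfp42 (0.59, limma adjusted p = 0.447). At Klf4 ILMN_2999439 the difference was 0.40, and -0.19 without gPS OG2-ROSA line 1. Without gPS OG2-ROSA line 3 the first 2 passed, at 1.98 and 1.87 (limma adjusted p = 0.0249 and 0.02), with 1.66% of all tested probes called. Without both dim lines, 1 and 2, they were 0.66 and 0.28 (limma adjusted p = 0.872 and 0.979).

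For GSC OG2-ROSA against GSC OG2, limma called 0 of the 11 probes and 0.00767% of all tested probes, with 1 of 11 at an unadjusted p under 0.05, against 3.91%. That probe was Klf2, higher by 1.18 in GSC OG2-ROSA (95% interval 0.71 to 1.65, unadjusted p = 0.000114, limma adjusted p = 0.247). Its arrays did not overlap, as those of 5.59% of all tested probes did not in this direction. With array weights it passed, at 1.09 (limma adjusted p = 0.0492), with 0.0614% of all tested probes called. The Zfp42 arrays did not overlap either, with a difference of 0.55 (unadjusted p = 0.0576).

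The order of the 5 group means was examined for each tested probe, with the difference between neighbours tested in the same fit. For 9 of 11 probes, 1 of the 4 gaps between neighbours was called, and it was always the gap between the lowest pluripotent group and the highest GSC group. For Klf4 ILMN_1241903 and Myc no neighbouring groups differed beyond the threshold. The top group was ESC for Klf2, gPS OG2 for Klf5 and gPS OG2-ROSA for Esrrb, Zfp42, Myc, Klf4 at ILMN_2999439 and Tbx3 at ILMN_1247220. The lowest group was GSC OG2 for Klf2, Esrrb, Zfp42 and Myc and GSC OG2-ROSA for the other 3 genes at those probes. Neighbours within the pluripotent groups and within the GSC groups were thus not separated by the test on any probe.

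Genes with the most similar course were sought at the probe with the highest mean of each factor, as the smallest root mean square difference between profiles centred on their own means, over the 14 arrays. For Klf2 they were Manba (0.42 on the log2 scale), Dppa5a (0.44) and Socs2 (0.50). For Esrrb they were Ooep (0.37), Gtsf1l (0.42) and Hspb1 (0.44), and for Klf5 Fgf17 (0.44), Ooep (0.48) and Hspb1 (0.60). Ooep and Hspb1 thus stood near both Esrrb and Klf5. The nearest to Tbx3 were Slc1a3 (0.36), Rpp25 (0.43) and Sfxn1 (0.44), to Zfp42 Mapkapk3 (0.25), Zfp763 (0.27) and Mybl2 (0.27), to Klf4 Tmem39a (0.26), Armcx1 (0.33) and Pdia6 (0.33), and to Myc Nup50 (0.25), Cachd1 (0.25) and Mep1b (0.30).

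Most other genes of the naive network rose too. Of 14 tested, 13 rose from GSC to gPS, 0 fell and 1 did not pass, where 30.4% of all tested probes rose. The gene not called was Jarid2, a Polycomb cofactor, at 0.31, and it was called at 0.61 without gPS OG2-ROSA line 2 and at 0.72 without both dim lines. The median log2 difference was 2.97 at fitted values, beside -0.04 over all tested probes. Nanog, the core homeobox factor, was at least 69.2-fold higher, being undetected in GSC, and Zscan10, a zinc finger factor of embryonic stem cells, at least 13.5-fold. Both are counted among the 13 and entered the test through pluripotent arrays only, so their direction was largely set by the filter. The same limit holds for any list gene detected on no array of 1 side. Gbx2, a homeobox target of LIF and STAT3, rose by 5.40 on the log2 scale (SE 0.47, limma adjusted p = 4.26e-07) and Dppa5a, an RNA-binding protein of pluripotent cells, by 4.05 (SE 0.15, limma adjusted p = 1.56e-10). Tcl1, a coactivator of AKT kinase, rose by 1.05 (limma adjusted p = 0.0189) and lost its call under scaling by the median of all probes (0.79), with the replicate block (limma adjusted p = 0.055), without GSC OG2-ROSA line 1 (0.87) and without gPS OG2 line 2 (0.86). None of the 14 was called against ESC in either background, where only 0.836% (gPS OG2) and 0.261% (gPS OG2-ROSA) of all tested probes were.

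Genes of LIF signalling did not rise as a group. Of 10 tested, 1 was higher, 4 were lower and 5 did not pass, where 33.5% of all tested probes were called lower, and the median log2 difference was -0.62. Jak2, a kinase of cytokine receptors, fell at least 6.67-fold and was detected on no gPS array, so the limit of the filter given for Nanog holds in reverse. Jak1, the kinase bound to the LIF receptor complex, had a log2 difference of -2.71 (SE 0.27, limma adjusted p = 1.36e-06), and Stat3 of -2.24 (SE 0.21, limma adjusted p = 8.06e-07). Tyk2, a further JAK family kinase, had a difference of -1.31 (SE 0.13, limma adjusted p = 1.03e-06). Pim3, a kinase gene and the only one called higher, rose by 1.27 (SE 0.18, limma adjusted p = 3.11e-05). Socs3, the feedback inhibitor induced by STAT3, differed by -0.42 and Il6st, the shared receptor subunit gp130, by -0.24, without passing. Socs3 was called lower with array weights (-0.55), without gPS OG2-ROSA line 1 (-0.57) and without both dim lines (-0.75), and Il6st without GSC OG2-ROSA line 2 (-0.34). Under scaling by the median of all probes 6 were lower, and by the median of probes detected on all arrays 5, Il6st among them in both. None of the 10 was called against ESC by limma in either background, where only 0.836% (gPS OG2) and 0.261% (gPS OG2-ROSA) of all tested probes were.

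Of 13 other tested KLF and SP factors, 6 rose, 3 fell and 4 did not pass, where 30.4% of all tested probes rose and 33.5% fell, and the median log2 difference was 0.48. Klf9 rose by 1.72 (SE 0.15) and Klf3 by 1.66 (SE 0.29), whereas Klf7 had a difference of -2.11 (SE 0.26), with limma adjusted p of 4.25e-07, 0.000194 and 1.06e-05. Sp4 was undetected in gPS and at least 1.18-fold lower, with the limit of the filter given for Jak2. Klf6 rose by 1.23, and the rise of Klf16, at 0.48, lost its call under both median scalings (0.12 and 0.39) and without 1 of several lines. The fitted differences of Klf2 (4.32) and Klf5 (5.48) thus lay above those of all 13 tested paralogues, while that of Klf4 at ILMN_2999439 (1.35) lay between Klf6 and Klf3. The place of Klf4 depended on the probe: ILMN_1241903 (1.71) lay between Klf3 and Klf9, and ILMN_1221264 (1.94) above Klf9.

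Of 8 tested partners and relatives of Myc, 1 rose, 4 fell and 3 did not pass, beside 30.4% and 33.5% of all tested probes. In OG2 alone 1 rose and 2 fell (23.2% and 26.2% of all tested probes), and in OG2-ROSA alone 1 rose and 3 fell (23.9% and 26.2%). Max, the obligate partner of MYC, rose by 0.73 (SE 0.12, limma adjusted p = 0.000121). Mxd4, which competes with MYC for MAX, was undetected in gPS and at least 1.51-fold lower, with the limit of the filter given for Jak2. Mxi1, of the same group, had a difference of -1.29. Mlxipl, the carbohydrate-response factor, had a difference of -2.22 and Mycl of -0.83. Of 17 tested genes that MYC is known to activate, 12 rose, 0 fell and 5 did not pass, beside 30.4% of all tested probes that rose, with a median of 0.82. Fbl (fibrillarin), at -0.21, was called lower with normexp at offset 50, with no background correction and without a probe filter, and higher (0.35) under scaling by the median of probes detected on all arrays. Under scaling by the median of all probes 13 rose and Cad, an enzyme of pyrimidine synthesis, fell (-0.63), and by the median of probes detected on all arrays 15 rose. Ldha (lactate dehydrogenase) rose by 3.01, Odc1 (polyamine synthesis) by 2.69, Srm (spermidine synthase) by 2.64 and Ncl (nucleolin) by 1.59. None of the 8 or of the 17 was called against ESC in either background, where only 0.836% (gPS OG2) and 0.261% (gPS OG2-ROSA) of all tested probes were.

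**Figure D4:**
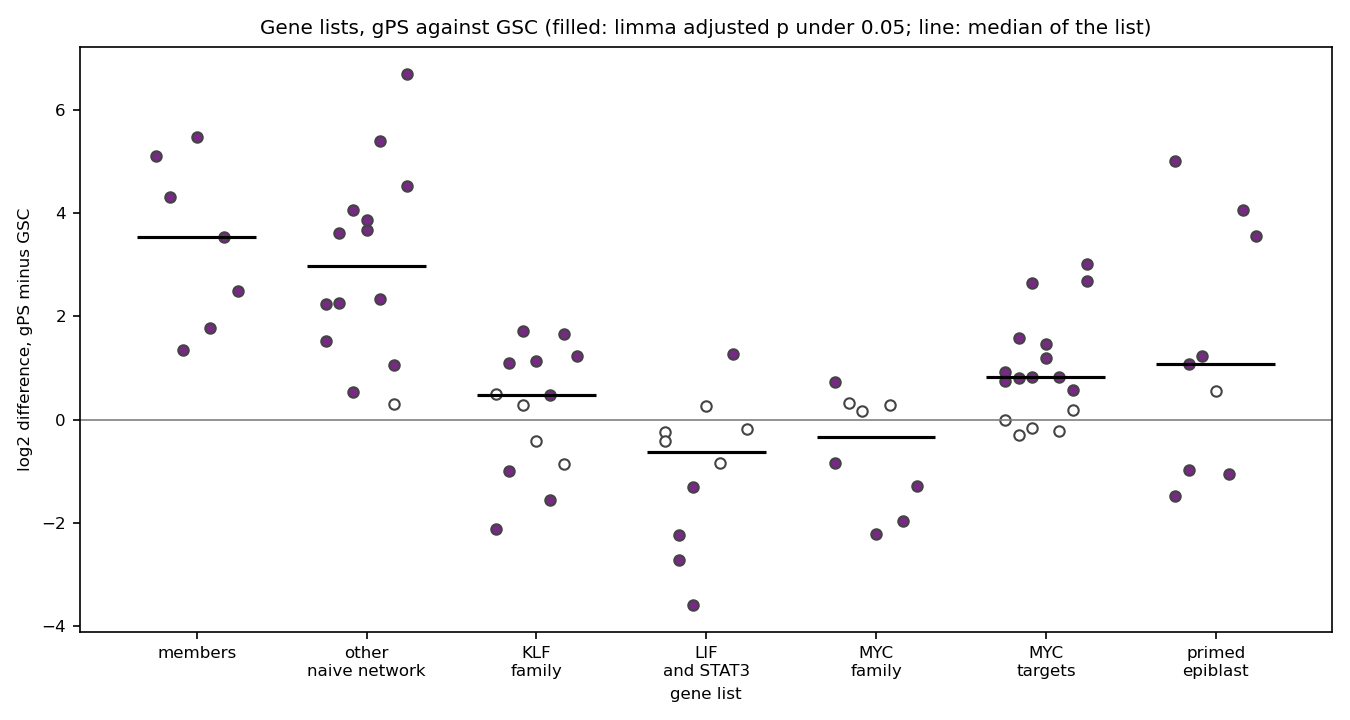
Log2 difference of gPS minus GSC (vertical axis) for the tested genes of 7 lists (horizontal axis), each gene at its probe with the highest mean; filled points passed the limma test at an adjusted p under 0.05, and lines are list medians. All 7 factors and 13 of 14 other naive network genes lie above 0 and are filled, while the LIF and STAT3 list has 1 filled point above and 4 below 0.

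Among the relatives and coactivators of Esrrb, 2 of 4 tested genes rose, beside 30.4% of all tested probes. Ncoa1 rose by 2.21 and the coactivator Ncoa3 by 0.69, the latter without a call under scaling by the median of all probes (0.35). Esrra differed by 0.29 without passing. Of 2 other tested T-box genes, Tbx6 had a difference of -0.56, called, and Eomes of 0.15, not called. The YY1 relatives of Zfp42 had no tested probe. Genes of the primed epiblast, the state that follows the naive one, rose in 5 of 9 cases, fell in 3 and did not pass in 1, beside 30.4% of all tested probes that rose and 33.5% that fell. In OG2 alone 6 rose and 1 fell (23.2% and 26.2% of all tested probes), and in OG2-ROSA alone 3 rose and 3 fell (23.9% and 26.2%). Cldn6, a tight junction protein, was at least 21.5-fold higher in gPS, the TGF-beta ligand Nodal at least 8.99-fold and the homeobox factor Otx2 at least 5.87-fold. The limit of the filter given for Nanog holds for Cldn6, Nodal and Otx2. Pou3f1, a POU factor also expressed in spermatogonia, had a difference of -1.47. In gPS OG2, 2 of these 9 genes were called higher than in ESC, where both were undetected: Pou3f1, at least 5.64-fold (limma adjusted p = 0.044), and Fgf5, a growth factor of the primed epiblast, at least 1.32-fold (limma adjusted p = 0.023). Of all tested probes, 0.322% were called higher in gPS OG2 than in ESC. In gPS OG2-ROSA none of the 9 was called, where 0.261% of all tested probes were.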

How the data were processed

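Probe intensity was deposited on a linear scale without background subtraction, and each intensity comes with a deposited detection p-value, per the file headers. BeadStudio 3.2, RMA and lumi appear in the submitters' processing notes, with no step assigned to them. The deposited series value table gives log2 values processed by the authors, the log base being inferred from the values (median 4.23 in each column), and served as an alternative.

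Intensities were normalized with neqc in limma 3.58.1 under R 4.3.3 (normexp background from detection p-values, an offset of 16, then quantiles and log2). Testing was limited to the 13034 of 25697 probes whose detection p was under 0.01 on 2 or more arrays. A single gene symbol was given for 23978 probes, several for 0 and none for 1719. All 7 genes matched the RefSeq gene table (GRCm38.p6) by Entrez identifier, and chromosomes come from it.

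Arrays were grouped by the labels. lmFit and eBayes fitted 1 mean per group, 5 in all, over the 14 arrays, with Benjamini-Hochberg adjustment over all tested probes and an adjusted p under 0.05 as the call. All adjusted p-values are limma's. Precision is limited by the number of arrays. Where the labels do not say that lines came from separate animals, p-values measure only the spread between these samples. The fit was also run on simulated data with independent normal noise and few changed probes. That run checked the computation and not how far the calls hold for these arrays.

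The members, gene lists and alternatives were chosen with earlier results of these data known. The genes named are all probes of the 7 factors, the 3 nearest profiles of each, and up to 4 called genes per list with the largest change in the main comparison, with paralogues where a sentence needs them. Jarid2, Tcl1, Pim3, Socs3, Il6st, Cad, Fbl and Fgf5 fall outside this and were chosen after their values were seen. Alternatives changed the background correction, the scaling, the filter on probes or the groups fitted, used array weights or a replicate block, averaged the ESC arrays, and left out both dim arrays or each array in turn. Scaling by the median of probes detected on all arrays was added after seeing the data.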

Additional observations from a re-analysis of the deposited data

Results flagged for a closer look

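In the pooled groups of 6 GSC and 6 gPS arrays, 4 of 22 sets of values had 1 array that stood apart by Dixon's test. Chance gives about 1 in 20 for independent sets, each from 1 normal population. These sets share arrays, some share a gene, and each pools 2 backgrounds, so their count cannot be judged against that rate. Klf4 at ILMN_2999439 was highest on gPS OG2-ROSA line 1, at a log2 intensity of 11.32, with the nearest gPS array at 9.85 and the lowest at 9.49. Esrrb was lowest on GSC OG2 line 1, at 6.76, with the nearest GSC array at 7.71. Tbx3 at ILMN_3139514 was highest on GSC OG2 line 2, at 6.77, with the nearest GSC array at 5.71, and ILMN_1247220 was highest on the same array. Myc at ILMN_2623526 was lowest on GSC OG2 line 1, at 4.61, with the nearest at 4.79, all of them undetected.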

How the results depend on the processing

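The 11 calls of gPS against GSC in both backgrounds, and the 11 in OG2-ROSA, were kept under every alternative and with any array left out (11 to 11). In OG2 the count was 10, 8 to 10 with 1 array left out and 8 to 11 otherwise, the losses being Klf4 probes. With 1 array left out, 42.3% to 44.7% of all tested probes were called in OG2, compared with 49.4%. The count for the difference between backgrounds was 0 throughout. For gPS OG2 against ESC it was 0, and 2 with array weights, under which 12.5% of all tested probes were called in place of 0.836%. For gPS OG2-ROSA against ESC it was 0, and 2 without gPS OG2-ROSA line 3, where 2.06% of all tested probes were called in place of 0.261%. For GSC OG2 against ESC it was 10, 6 to 8 with 1 GSC OG2 line left out and 6 without a probe filter. The share of all tested probes called was 45.7%, and 39.5% to 40.6% with 1 of these lines left out. Without the filter it was 22.8% of all probes. For GSC OG2-ROSA against ESC it was 10, and at most 9 with 1 GSC OG2-ROSA line left out, the Klf4 probes losing their calls without line 2. The share of all tested probes called was 45.9%, and 38.5% to 42.1% with 1 of these lines left out. With the ESC arrays averaged or 1 of them left out, 1 ESC sample remains, and calls of members and of all probes fell in both comparisons. For gPS OG2-ROSA against gPS OG2 it was 0, and 2 without gPS OG2-ROSA line 3, where 1.66% of all tested probes were called in place of 0.222%. For GSC OG2-ROSA against GSC OG2 it was 0, and 1 with array weights, under which 0.0614% of all tested probes were called in place of 0.00767%. Fewer samples remain in the averaged and left-out fits, and the cause of the other changes was not tested. The Klf4 difference at ILMN_2999439 between gPS backgrounds reversed to -0.12 without both dim arrays and ran from -0.19 (without gPS OG2-ROSA line 1) to 0.73 (without line 2) with 1 array left out. Of single differences tried again, 1021 kept direction and call, 75 lost the call, 16 gained it and 2 reversed.

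No pairing by line number was seen: correlations of deviations between lines of the same number were -0.16 to 0, and none correlated best with its own number. With 3 lines per group, this cannot show whether a gPS line came from the GSC line of its number. With the number as a replicate block the calls were 11, 9 in OG2, 11 in OG2-ROSA and 0 for the difference, Klf4 ILMN_1221264 in OG2 being lost. For Myc and for Tbx3 at ILMN_3061990 signal over background limits the size of the change, which for the latter ran from 0.58 with no background correction to 2.12 with the authors' processed values.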

Other observations

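The dimmest array was that of gPS OG2-ROSA line 2. Its normalized Myc value at ILMN_2623526 was the highest of the 14 (7.33), whereas its raw intensity, 137.2, lay inside the range of the GSC arrays (124.5 to 141.3). The mean of the negative controls was 84.02 on that array and 128.3 to 132.6 on the GSC arrays. The disagreement of the Klf4 probes on that line was also present in the authors' processed values, with 9.34 at ILMN_2999439 and 10.01 at ILMN_1241903, compared with 11.22 and 9.82 on line 1.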
